A study of Mus musculus with 15 samples.

Results

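The 10 genes described here handle the entry of iron into cells, its exit, and the breakdown of haem. They are Tfrc and Tfr2 (transferrin receptors), Steap3 (an iron reductase), Slc11a2 (an iron importer), Slc40a1 (the iron exporter), Hamp (hepcidin), Hmox1 (haem oxygenase), Blvra and Blvrb (biliverdin reductases) and Ireb2 (an iron sensor). They were chosen by name, with earlier results of these data known. All 10 were found, each with 1 probe set, among 19938 genes measured on Affymetrix MoGene arrays. The cells were taken from fetal livers of the FVB/NJ strain at stage E14.5 and were sorted with magnetic beads against TER119, a surface antigen of maturing red cell precursors. The groups were Klf3 knockout (KO) TER119 positive cells (3 arrays), wild-type (WT) TER119 positive cells (4 arrays), KO TER119 negative cells (4 arrays) and WT TER119 negative cells (4 arrays). TER119 positive cells were kept by selection and TER119 negative cells by depletion, and all groups share the strain, stage and organ. The labels do not describe the Klf3 allele, the purity of the fractions, or whether replicates came from separate embryos. Every p-value is thus a statement about the spread of these arrays, some of which may be technical.

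Red cell precursors take up almost all their iron as transferrin. The receptor encoded by Tfrc carries it into endosomes, the Steap3 reductase converts ferric to ferrous iron there, and the Slc11a2 importer (DMT1) passes it to the cytosol, from where it reaches mitochondria for haem synthesis. Ferroportin, the product of Slc40a1, is the known route of iron out of cells, and hepcidin, a hormone of hepatocytes encoded by Hamp, removes it from the surface. In macrophages, which clear the nuclei and debris of red cell precursors in the fetal liver, Hmox1 opens the haem ring to biliverdin and frees the iron, and biliverdin reductases make bilirubin from it.

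The values are log2 expression per probe set, on which a difference of 1 is a doubling; errors of levels are standard deviations (SD) and errors of differences are standard errors (SE) of the model. A gene was called when limma's moderated test gave a Benjamini-Hochberg adjusted p under 0.05 over all 19938 genes. Klf3 itself did not separate the genotypes: it lay between 10.34 and 10.55 on the KO against 9.94 and 10.50 on the WT TER119 positive arrays, and between 8.02 and 8.74 on the KO against 7.94 and 8.80 on the WT TER119 negative arrays. Whether this probe set lies in the deleted part is not known, and outside it the probe set would check nothing. Genotype was taken from the labels alone, and the knockout arrays are named KO-labelled here. Xist and the Y-linked genes gave 1 male and 2 female KO-labelled against 2 male and 2 female WT arrays of TER119 positive cells, and 1 male and 3 female KO-labelled against 4 male and 0 female WT arrays of TER119 negative cells. KO-labelled array 4 and WT arrays 2 and 4 of TER119 negative cells had been noted to stand apart, by a rule not given here. The results on that fraction were also computed without them. Those results rest on WT arrays 1 and 3 alone for the WT group of that fraction.

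Markers of several cell types differed between the fractions. Of the 12 measured markers of later red cell precursors, which start with the anion exchanger gene Slc4a1, the haem synthesis gene Alas2 and the membrane skeleton gene Epb42, 12 were higher in WT TER119 positive than in WT TER119 negative cells. The 19 hepatocyte-lineage markers (Alb, Afp, Ttr and others) were also all higher, and so were 15 of 16 macrophage markers, among them Adgre1, C1qa and Cd5l, 7 of 9 endothelial and 8 of 9 stromal markers. All 10 neutrophil precursor markers were lower, as were 9 of 11 markers of earlier precursors and progenitors, such as Kit, Gata2 and Cd34. The list means ran from 11.94 to 12.08 in WT TER119 positive and from 8.04 to 8.81 in WT TER119 negative arrays for later red cell precursors. For hepatocyte-lineage genes they ran from 10.90 to 11.63 in WT TER119 positive and from 5.69 to 7.82 in WT TER119 negative arrays. For macrophage genes they ran from 7.97 to 8.24 in WT TER119 positive and from 5.61 to 5.83 in WT TER119 negative arrays. The red cell label of the TER119 positive fraction was met by its markers, and liver and macrophage markers were high in the same fraction. The part of these cells in the differences between fractions given here was not tested.

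**Figure D1:**
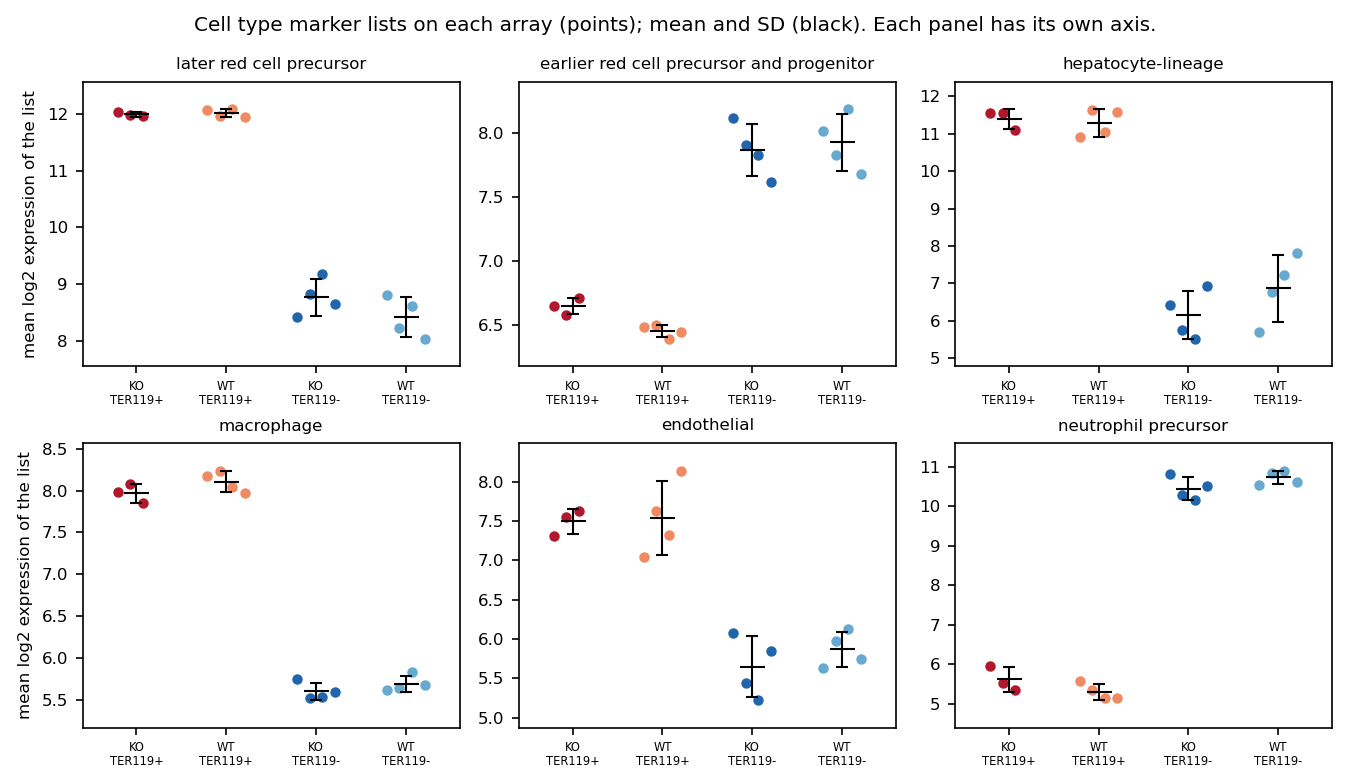
Mean log2 expression of 6 cell type marker lists (vertical axes, one scale per panel) on each array, in KO-labelled and WT TER119 positive and KO-labelled and WT TER119 negative cells; points are arrays, black marks the mean and SD. The later red cell, hepatocyte, macrophage and endothelial lists were higher on every TER119 positive than on every TER119 negative array, and the neutrophil and earlier precursor lists were lower.

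The question of the first comparison was how iron genes differ between TER119 positive and TER119 negative cells. In KO-labelled cells 8 of the 10 genes were higher in the TER119 positive fraction and Ireb2 and Hamp were not called. Among all genes 22.6% were called higher and 26.5% lower, 49.0% in all. In WT cells, whose arrays are separate, the same 8 genes were higher, Ireb2 was lower and Hamp was not called, where 23.5% of all genes were called higher and 29.1% lower, 52.6% in all. The arrays of the fractions did not overlap for 9 of the 10 genes in either genotype, 8 higher and Ireb2 lower. Among all genes 25.2% were higher and 30.9% lower without overlap in KO-labelled cells, and 20.9% and 24.7% in WT cells. The median difference of the 10 genes was 1.61 in KO-labelled and 1.68 in WT cells, beside -0.06 and -0.09 over all genes. In sorted bulk cells, fewer cells of a type and less RNA per cell cannot be told apart. The differences in WT cells ran from 5.09 for Hmox1 and 4.14 for Slc40a1 through 2.69 for Slc11a2, 2.00 for Steap3, 1.83 for Tfr2, 1.54 for Blvrb, 1.51 for Tfrc and 1.17 for Blvra to -0.26 for Ireb2 and -0.29 for Hamp.

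**Figure D2:**
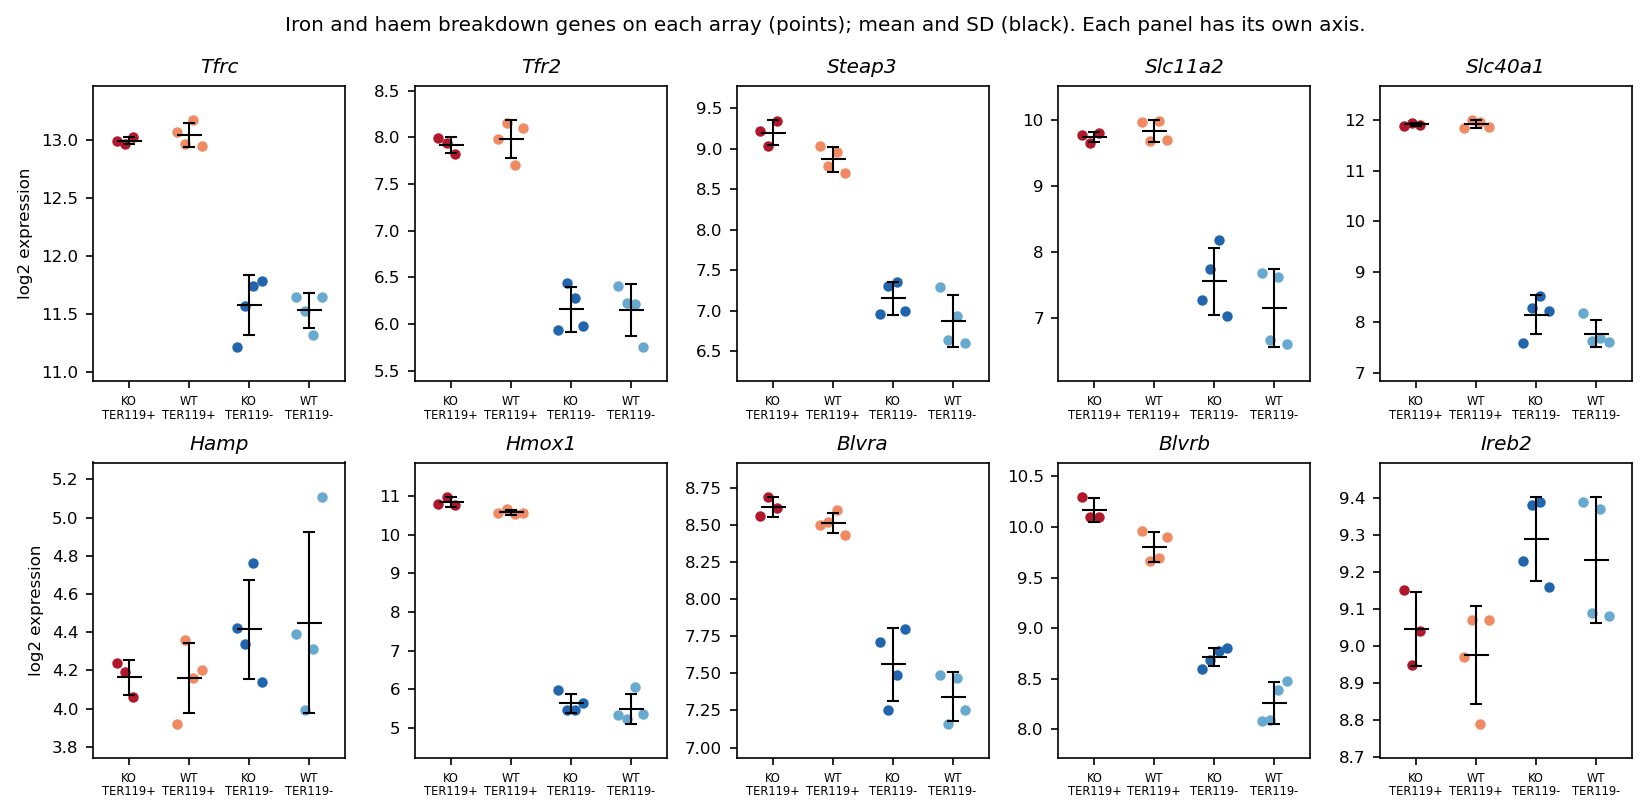
Log2 expression of the 10 genes (vertical axes, one scale per panel) on each array in KO-labelled and WT TER119 positive and KO-labelled and WT TER119 negative cells; points are arrays, black marks the mean and SD. For 8 genes every TER119 positive array lay above every TER119 negative array, whereas Hamp overlapped and Ireb2 was slightly lower.

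The sequences before the transcription start are shown for 4 genes: Tfrc and Steap3 as uptake genes that were higher in TER119 positive cells, Blvrb for its separate bands of genotypes, and Hamp as the hormone gene that was not called. Each is the 250 bases before the first start listed by RefSeq (GRCm38.p6), 5′ to 3′ on the gene's strand, on chr16:32608646-32608895 for Tfrc (plus strand), chr1:120271081-120271330 for Steap3 (minus strand), chr7:27447728-27447977 for Blvrb (plus strand) and chr7:30944030-30944279 for Hamp (minus strand). Capitals mark matches, on either strand, to CACCC (the box that KLF proteins bind), GATAA (the core that GATA factors bind) or TGACNNNGC (the core of the element that NRF2 and small MAF proteins bind).
Tfrc: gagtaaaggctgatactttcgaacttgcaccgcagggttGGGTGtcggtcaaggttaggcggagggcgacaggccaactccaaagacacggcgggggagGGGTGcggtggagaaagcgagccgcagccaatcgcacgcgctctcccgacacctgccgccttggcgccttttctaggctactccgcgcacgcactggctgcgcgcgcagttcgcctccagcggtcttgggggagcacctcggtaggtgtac
Steap3: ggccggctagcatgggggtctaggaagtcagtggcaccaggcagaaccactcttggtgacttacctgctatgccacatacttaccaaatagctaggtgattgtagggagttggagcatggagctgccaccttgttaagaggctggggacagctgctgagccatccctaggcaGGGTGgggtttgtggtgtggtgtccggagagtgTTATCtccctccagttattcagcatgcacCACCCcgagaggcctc
Blvrb: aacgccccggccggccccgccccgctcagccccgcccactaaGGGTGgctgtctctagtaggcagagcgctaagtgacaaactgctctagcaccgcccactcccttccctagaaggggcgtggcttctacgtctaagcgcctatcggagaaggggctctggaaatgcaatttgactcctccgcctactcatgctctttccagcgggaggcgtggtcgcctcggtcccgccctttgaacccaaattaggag
Hamp: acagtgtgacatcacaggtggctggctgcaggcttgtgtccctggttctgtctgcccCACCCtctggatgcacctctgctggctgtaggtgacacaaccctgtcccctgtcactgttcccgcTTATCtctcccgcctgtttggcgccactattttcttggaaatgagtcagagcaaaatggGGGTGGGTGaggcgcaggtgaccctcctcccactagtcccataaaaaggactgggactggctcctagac
Slc11a2, Slc40a1 and Hmox1 had no listed start and were not searched, which left 7 of the 10 genes. CACCC occurred in the first window of 5 of these 7 (Tfrc, Tfr2, Steap3, Hamp and Blvrb), where 51.3% of the first windows of 27025 genes held it. GATAA occurred in 2 (Steap3 and Hamp), against 23.0% of all, and TGACNNNGC in 1 (Blvra), against 10.1%. The marked Blvrb window held 1 CACCC match and no GATAA match. A match is a run of letters and not a shown binding site.

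Transferrin uptake genes were higher in TER119 positive cells. Tfrc, which encodes the main receptor for iron-loaded transferrin, stood at 12.99, 12.96 and 13.02 in KO-labelled and at 13.07, 12.96, 13.17 and 12.95 in WT TER119 positive cells. The TER119 negative values were 11.21, 11.57, 11.74 and 11.78 in KO-labelled and 11.64, 11.52, 11.32 and 11.64 in WT arrays. All 7 TER119 positive arrays lay above all 8 TER119 negative arrays, and the genotypes overlapped within each fraction. Tfrc differed between fractions by 1.42 (SE 0.13, adjusted p = 9.12e-08) in KO-labelled and 1.51 (SE 0.12, adjusted p = 1.55e-08) in WT cells. In WT cells that is 2.84-fold (95% interval 2.38 to 3.39).

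Tfr2 encodes a second transferrin receptor, which senses iron-loaded transferrin in hepatocytes and associates with the erythropoietin receptor in red cell precursors. It stood at 7.99, 7.94 and 7.82 in KO-labelled and at 7.98, 8.15, 7.70 and 8.10 in WT TER119 positive cells. Its TER119 negative values were 5.94, 6.44, 6.28 and 5.98 in KO-labelled and 6.41, 6.23, 6.21 and 5.75 in WT arrays. The fractions did not overlap and the genotypes did. Tfr2 differed between fractions by 1.76 (SE 0.16) in KO-labelled and 1.83 (SE 0.15, adjusted p = 1.94e-08) in WT cells. Markers of hepatocyte-lineage cells and of later red cell precursors were both higher on the same arrays. Their part in the Tfr2 difference was not tested.

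Steap3 encodes the endosomal reductase of red cell precursors. It stood at 9.22, 9.03 and 9.34 in KO-labelled and at 9.03, 8.78, 8.96 and 8.70 in WT TER119 positive cells. In TER119 negative cells it stood at 6.96, 7.30, 7.36 and 6.99 in KO-labelled and at 7.29, 6.64, 6.94 and 6.60 in WT arrays. The fractions were separate, with a difference of 2.05 (SE 0.16) in KO-labelled and 2.00 (SE 0.15, adjusted p = 7.45e-09) in WT cells, a 4.00-fold difference (95% interval 3.21 to 4.99) in WT.

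Slc11a2 encodes DMT1, the importer that moves ferrous iron out of the endosome. It stood at 9.77, 9.65 and 9.80 in KO-labelled and at 9.96, 9.68, 9.98 and 9.69 in WT TER119 positive cells. It varied more among TER119 negative cells, with 7.27, 7.74, 8.17 and 7.02 in KO-labelled and 7.68, 6.66, 7.62 and 6.60 in WT arrays. WT arrays 2 and 4, the low ones, were also the lowest in the later red cell list among WT TER119 negative arrays (8.23 and 8.04, against 8.81 and 8.61 for arrays 1 and 3), and the KO-labelled array highest in Slc11a2 was highest in that list too (9.18). KO-labelled array 4, lowest in Slc11a2 (7.02), went the other way, with a list mean of 8.65 above that of array 1 (8.42). The part of this list in the spread of Slc11a2 was not tested. The difference between fractions was 2.19 (SE 0.28, adjusted p = 3.99e-06) in KO-labelled and 2.69 (SE 0.26, adjusted p = 1.39e-07) in WT cells.

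The exporter gene differed far more than the uptake genes, and the hormone gene, whose product removes the exporter, was not called. Slc40a1 stood at 11.89, 11.95 and 11.90 in KO-labelled and at 11.84, 12.00, 11.96 and 11.86 in WT TER119 positive cells. Among TER119 negative cells it stood at 7.59, 8.28, 8.51 and 8.23 in KO-labelled and at 8.18, 7.63, 7.68 and 7.61 in WT arrays. The spread within TER119 positive cells was small, the fractions were separate, and 3 of the 4 KO-labelled TER119 negative arrays lay above every WT array of that fraction. Slc40a1 differed between fractions by 3.76 (SE 0.18, adjusted p = 4.04e-11) in KO-labelled and 4.14 (SE 0.16, adjusted p = 3.83e-12) in WT cells, a 17.6-fold difference (95% interval 13.8 to 22.4) in WT. Macrophages and red cell precursors both express ferroportin, and markers of both were higher on the same arrays.

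Hamp stood at 4.24, 4.19 and 4.06 in KO-labelled and at 3.92, 4.36, 4.16 and 4.20 in WT TER119 positive cells. Its TER119 negative values were 4.42, 4.34, 4.76 and 4.14 in KO-labelled and 4.39, 3.99, 4.31 and 5.11 in WT arrays. All 4 groups overlapped. Detection calls were not used here, and it is unknown whether any of these levels lay above background. The difference between fractions was -0.25 (95% interval -0.68 to 0.18, adjusted p = 0.344) in KO-labelled and -0.29 (95% interval -0.69 to 0.11, adjusted p = 0.211) in WT cells. Hepatocyte-lineage markers, by contrast, were higher in TER119 positive cells by a median of 5.39 in KO-labelled and 4.33 in WT arrays. Hamp2, a closely related hepcidin gene of the mouse with its own probe set, was lower in WT TER119 positive cells by the model (-0.94, SE 0.24, adjusted p = 0.00305).

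Haem breakdown showed the largest difference of the set. Hmox1, which encodes the inducible haem oxygenase, stood at 10.81, 10.99 and 10.76 in KO-labelled and at 10.57, 10.67, 10.53 and 10.56 in WT TER119 positive cells. In TER119 negative cells it stood at 5.98, 5.46, 5.46 and 5.65 in KO-labelled and at 5.34, 5.22, 6.07 and 5.35 in WT arrays. The gap between the fractions was many times the spread within any group. The difference was 5.21 (SE 0.17, adjusted p = 7.94e-13) in KO-labelled and 5.09 (SE 0.16, adjusted p = 3.18e-13) in WT cells, which is 37.1-fold and 34.0-fold on the linear scale. The TER119 negative values lay near the medians of the arrays (5.28 to 5.43) and were not shown to be above background, so these folds describe the deposited values only. WT TER119 negative array 3, the highest for Hmox1 in its group, was also the highest TER119 negative array for the macrophage (5.83), neutrophil (10.90), megakaryocyte (9.56), endothelial (6.13) and earlier precursor (8.19) lists.

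Blvra encodes the reductase of the main adult isomer of biliverdin. It stood at 8.56, 8.69 and 8.61 in KO-labelled and at 8.50, 8.52, 8.60 and 8.43 in WT TER119 positive cells, against 7.71, 7.25, 7.49 and 7.80 in KO-labelled and 7.49, 7.16, 7.47 and 7.25 in WT TER119 negative cells. Again the fractions were separate and the genotypes overlapped. Blvra differed between fractions by 1.06 (SE 0.13) in KO-labelled and 1.17 (SE 0.12, adjusted p = 2.64e-07) in WT cells. Blvrb encodes the second reductase, which acts on another isomer of biliverdin and on flavins and is abundant in red cells. It stood at 10.30, 10.10 and 10.10 in KO-labelled and at 9.96, 9.66, 9.69 and 9.90 in WT TER119 positive cells. Among TER119 negative cells it stood at 8.60, 8.69, 8.77 and 8.80 in KO-labelled and at 8.08, 8.09, 8.39 and 8.48 in WT arrays. Here the 4 groups formed 4 separate bands, with the KO-labelled above the WT arrays in each fraction. The difference between fractions was 1.46 (SE 0.12) in KO-labelled and 1.54 (SE 0.11, adjusted p = 5.32e-09) in WT cells.

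Ireb2 encodes IRP2, which binds iron-responsive elements in mRNAs when iron is scarce, stabilising the Tfrc message and blocking translation of ferritin. It stood at 9.15, 8.95 and 9.04 in KO-labelled and at 8.97, 9.07, 8.79 and 9.07 in WT TER119 positive cells, against 9.23, 9.38, 9.39 and 9.16 in KO-labelled and 9.39, 9.09, 9.37 and 9.08 in WT TER119 negative cells. Within a genotype the fractions did not overlap, but their edges nearly touched. The difference was -0.25 (SE 0.11, adjusted p = 0.0824) in KO-labelled and -0.26 (SE 0.10, adjusted p = 0.0461) in WT cells. The WT call was lost without WT TER119 positive array 1 (-0.26, adjusted p = 0.078) or 3 (-0.20, adjusted p = 0.142) and without WT TER119 negative array 1 (-0.21, adjusted p = 0.135) or 3 (-0.21, adjusted p = 0.112).

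**Figure D3:**
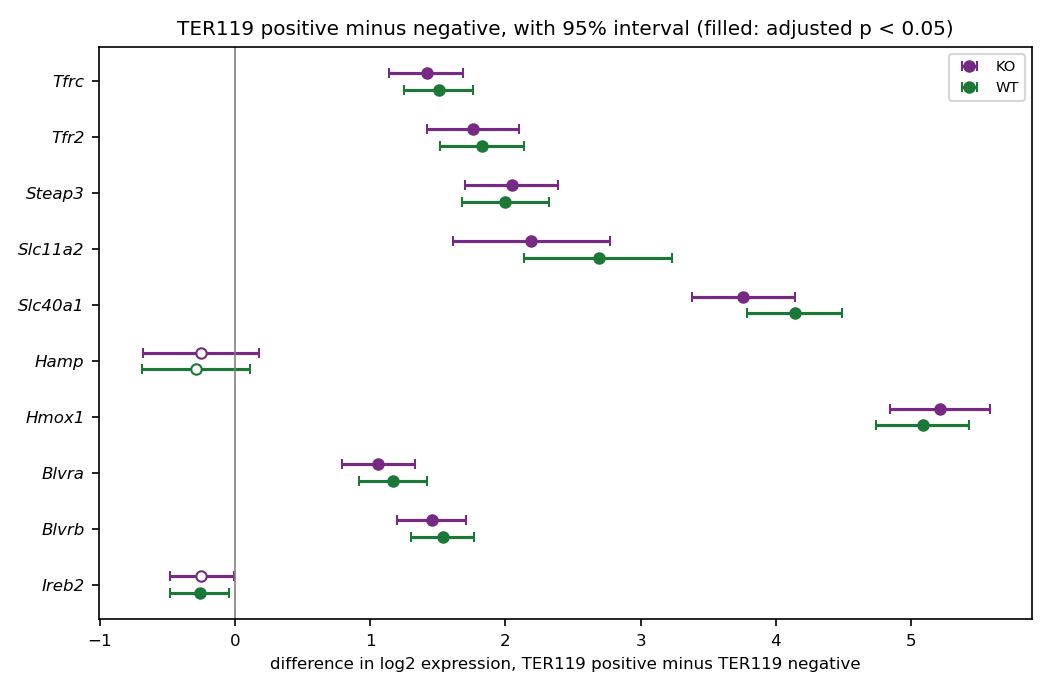
Difference in log2 expression between TER119 positive and TER119 negative cells (horizontal axis) for each of the 10 genes, in KO-labelled (purple) and WT (green) cells; points are model estimates, bars 95% confidence intervals, and filled points have an adjusted p under 0.05. Hmox1 (5.21 and 5.09) and Slc40a1 (3.76 and 4.14) stand farthest to the right, and Hamp and Ireb2 lie just left of 0.

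The second comparison set the genotypes against each other within a fraction. None of the 10 was called in either fraction, where 1.02% of all genes were called in TER119 positive and 0.0853% in TER119 negative cells. At an unadjusted p under 0.05 there were 1 of the 10 in TER119 positive and 2 in TER119 negative cells, beside 5.33% and 7.56% of all genes. The median difference of the 10 was 0.04 in TER119 positive and 0.18 in TER119 negative cells, against -0.01 and -0.02 over all genes.

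Blvrb had the largest difference between genotypes relative to its error in both fractions. From the values given above, its difference was 0.37 (SE 0.12, 95% interval 0.11 to 0.62, adjusted p = 0.36) in TER119 positive and 0.45 (SE 0.11, 95% interval 0.21 to 0.69, adjusted p = 0.313) in TER119 negative cells, that is 1.29-fold and 1.37-fold. These errors use a spread shared by both fractions. With each fraction fitted alone, the adjusted p was 0.193 in TER119 positive and 0.849 in TER119 negative cells. The lowest KO-labelled array lay above the highest WT array in both fractions, at 10.10 in KO-labelled against 9.96 in WT TER119 positive cells and at 8.60 in KO-labelled against 8.48 in WT TER119 negative cells. Among all genes 0.311% were higher without overlap in both fractions. Sex was uneven between the genotypes, so the values were also set side by side within a sex. Among male TER119 positive arrays Blvrb stood at 10.30 in KO-labelled and at 9.66 and 9.69 in WT cells, and among female ones at 10.10 and 10.10 in KO-labelled and at 9.96 and 9.90 in WT cells. In TER119 negative cells the 1 male KO-labelled array stood at 8.69, above the male WT arrays, and no female WT array was available.

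The averaged genotype effect over both fractions was fitted after the values of Blvrb had been seen. It gave 0.41 for Blvrb (SE 0.08, adjusted p = 0.0191), the 1 called of the 10 genes, where 0.953% of all genes were called. The call was lost without KO-labelled TER119 positive array 1 (0.375, adjusted p = 0.0875), without WT TER119 positive array 3 (0.389, adjusted p = 0.053) and without KO-labelled TER119 negative array 3 (0.399, adjusted p = 0.0506). It was also lost with sex as a factor (0.38, adjusted p = 0.142) and after quantile normalization (0.324, adjusted p = 0.232). The interaction of genotype and fraction for Blvrb was -0.08 (95% interval -0.43 to 0.27, adjusted p = 0.999).

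**Figure D4:**
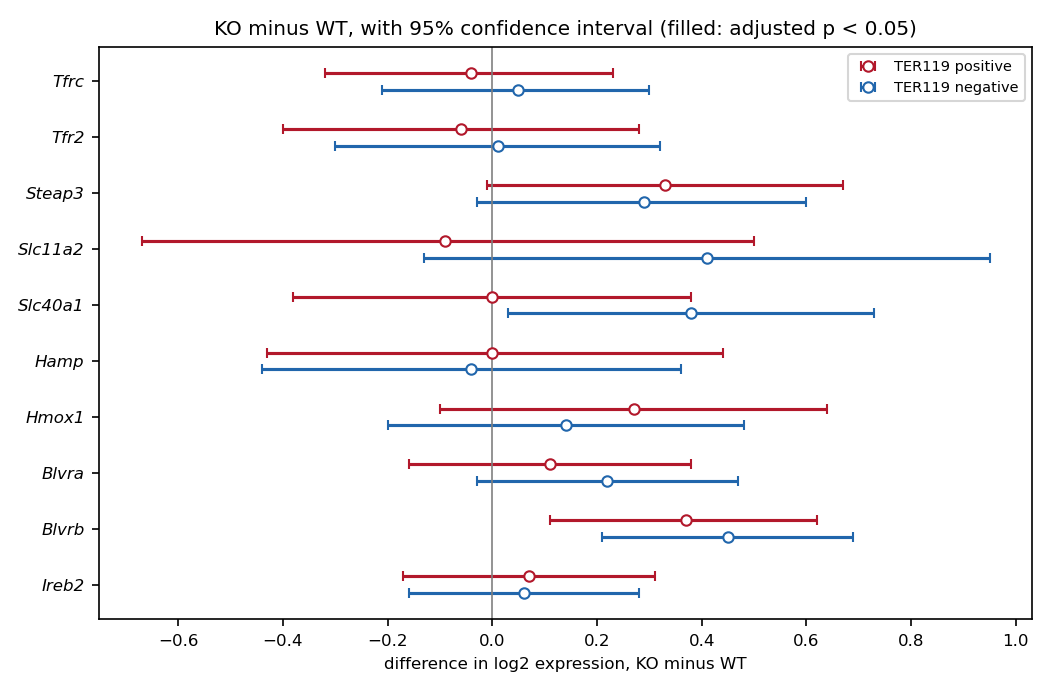
Difference in log2 expression between KO-labelled and WT cells (horizontal axis) for each of the 10 genes in TER119 positive (red) and TER119 negative (blue) cells; points are model estimates and bars 95% confidence intervals, and open points have an adjusted p of 0.05 or more. Blvrb lies at 0.37 and 0.45 with both intervals to the right of 0, and no gene was called.

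For the uptake genes the differences between genotypes in TER119 positive cells were -0.04 for Tfrc (95% interval -0.32 to 0.23), -0.06 for Tfr2 (-0.40 to 0.28) and -0.09 for Slc11a2 (-0.67 to 0.50). For Steap3 the difference was 0.33 (-0.01 to 0.67, adjusted p = 0.981), and its 3 KO-labelled arrays lay above the highest WT array, the nearest pair by less than the rounding. It was 0.00 for the exporter gene Slc40a1 (-0.38 to 0.38), 0.00 for Hamp (-0.43 to 0.44), 0.27 for Hmox1 (-0.10 to 0.64), 0.11 for Blvra (-0.16 to 0.38) and 0.07 for Ireb2 (-0.17 to 0.31). The arrays of the genotypes did not overlap for 3 of the 10 genes (Steap3, Hmox1 and Blvrb), all higher in KO-labelled cells, as for 5.29% of all genes. As ratios of KO-labelled to WT cells, the 95% intervals ran from 0.992 to 1.60 for Steap3, from 0.934 to 1.56 for Hmox1 and from 0.802 to 1.17 for Tfrc. All these intervals use a spread per gene shared with TER119 negative cells. With TER119 positive arrays fitted alone, the adjusted p was 0.322 for Steap3 and 0.293 for Hmox1. The marker list means on these arrays lay from 11.96 to 12.03 in KO-labelled and from 11.94 to 12.08 in WT cells for later red cell precursors, and from 7.85 to 8.08 in KO-labelled and from 7.97 to 8.24 in WT cells for macrophages. Those of 2 lists did not overlap between the genotypes. The megakaryocyte list (Pf4, Itga2b, Gp9 and others) lay from 8.40 to 8.77 in KO-labelled and from 9.20 to 9.52 in WT cells, with a median difference of -0.75 and 0 of 8 genes called (4 at an unadjusted p under 0.05). The earlier precursor list lay from 6.58 to 6.71 in KO-labelled and from 6.39 to 6.50 in WT cells, with a median difference of -0.08 and 1 of 11 genes called. That gene was Spi1 (2.36, SE 0.22), named after its value was seen, which encodes a transcription factor of blood progenitors. Spi1 averaged 9.04 in KO-labelled and 6.68 in WT cells, and 4 of the 11 genes were above 0 by sign. The list means include Spi1. Of the other genes Cebpa (7.25 against 7.06), Hlf (6.63 against 6.48) and Cd48 (6.12 against 5.96) averaged higher in KO-labelled than in WT cells. Kit (6.36 against 6.56), Gata2 (5.03 against 5.12), Cd34 (6.28 against 6.42) and Myb (6.52 against 6.59) averaged lower. So did Flt3 (4.75 against 4.82), Ikzf1 (8.19 against 8.28) and Meis1 (6.93 against 7.01). The higher list mean of KO-labelled cells thus rested on Spi1. The part of both lists in the differences of the 10 genes was not tested.

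In TER119 negative cells 9 of the 10 differences between genotypes were above 0, of which those of Tfr2 and Ireb2 were below 0 after quantile normalization. The difference was 0.38 for Slc40a1 (95% interval 0.03 to 0.73, adjusted p = 0.653), 0.41 for Slc11a2 (-0.13 to 0.95), 0.29 for Steap3 (-0.03 to 0.60), 0.22 for Blvra (-0.03 to 0.47) and 0.14 for Hmox1 (-0.20 to 0.48). It was 0.05 for Tfrc (-0.21 to 0.30), 0.06 for Ireb2 (-0.16 to 0.28), 0.01 for Tfr2 (-0.30 to 0.32) and -0.04 for Hamp (-0.44 to 0.36). The intervals use a spread shared with TER119 positive cells. The SD of Slc40a1 was 0.4 in KO-labelled and 0.27 in WT TER119 negative cells, but 0.03 and 0.08 in TER119 positive cells. With TER119 negative arrays fitted alone, Slc40a1 had an adjusted p of 0.849. Blvrb was the 1 gene whose arrays did not overlap, as for 1.22% of all genes in that direction. On the same arrays the 12 later red cell markers were all higher in KO-labelled cells by sign (median 0.32, 0 called), with list means from 8.42 to 9.18 against 8.04 to 8.81 in WT cells. The hepatocyte-lineage list ran the other way, from 5.52 to 6.93 in KO-labelled against 5.69 to 7.82 in WT cells. With the hepatocyte list mean as a covariate the differences were 0.178 for Slc40a1, 0.0391 for Slc11a2, 0.0761 for Steap3 and 0.545 for Blvrb. Without the 3 arrays that stood apart they were 0.197 for Slc40a1, 0.0728 for Slc11a2, 0.0914 for Steap3 and 0.445 for Blvrb. That fit keeps only WT arrays 1 and 3 of the fraction. The hepatocyte-lineage list mean of WT array 3 (7.22) lay above those of WT array 2 (6.76) and KO-labelled array 4 (6.93), which were left out. It lay below that of WT array 4 (7.82), also left out. Array 1 held the outlying WT value of Slc40a1 (8.18) and array 3 that of Hmox1 (6.07). For Blvra the values were 0.258 with the covariate and 0.000478 without the 3 arrays, and for Hmox1 they were 0.252 and -0.0713. Quantile normalization gave 0.323 for Blvrb, 0.227 for Slc40a1, 0.267 for Slc11a2, 0.155 for Steap3, 0.0746 for Blvra and 0.261 for Hmox1. Leaving out 1 array at a time gave 0.389 to 0.523 for Blvrb, 0.257 to 0.566 for Slc40a1, 0.199 to 0.587 for Slc11a2, 0.197 to 0.430 for Steap3, 0.138 to 0.324 for Blvra and 0.0278 to 0.335 for Hmox1. None of these values was called.

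The genotype effect did not pass the test of a difference between fractions for any of the 10 genes, where 0.436% of all genes passed. At an unadjusted p under 0.05 there were 0 of the 10 and 4.27% of all genes. The largest estimates were -0.49 for Slc11a2 (95% interval -1.29 to 0.30) and -0.38 for Slc40a1 (-0.89 to 0.13), each in the direction of a larger effect in TER119 negative cells.

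Other iron genes were read from 7 lists, also chosen with earlier results known, that together held 71 measured genes. In KO-labelled cells 43 of them were higher and 12 lower in TER119 positive than in TER119 negative cells. Over all genes 22.6% were called higher and 26.5% lower there. In WT cells 41 of the 71 were higher and 13 lower, with a median difference of 0.62, beside 23.5% and 29.1% of all genes and a median of -0.09. The counts of the single lists that follow are for WT cells and stand beside the same shares. In the transferrin cycle list (6 measured) 3 were higher and 1 lower. Trf, which encodes transferrin, a plasma protein of hepatocytes, was higher by 3.70 (SE 0.30), Snx3, which sorts the transferrin receptor for recycling, by 1.33, and Hfe, which encodes a partner of transferrin receptors, by 0.89. Exoc6, an exocyst subunit whose mutation impairs transferrin cycling in the mouse, was lower by the model (-1.06, SE 0.10, adjusted p = 2e-07).

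Among 12 other importers, reductases and ferroxidases 6 were higher and 1 was lower in WT TER119 positive cells. Steap2, a metalloreductase gene, was higher by 2.29, Cp, which encodes the plasma ferroxidase ceruloplasmin, by 2.08, and Slc39a14, an importer gene of hepatocytes, by 1.66. Lcn2, which encodes the siderophore-binding lipocalin 2 of neutrophil granules, averaged 6.42 in WT TER119 positive and 11.32 in WT TER119 negative cells (adjusted p = 2.63e-12), as the neutrophil precursor list did in direction. Of 8 storage and iron chaperone genes 6 were higher and 2 lower. Ftl1, the ferritin light chain gene, averaged 12.61 in WT TER119 positive and 10.18 in WT TER119 negative cells, a difference of 2.43 (SE 0.08, adjusted p = 7.31e-13). Ncoa4, the receptor that delivers ferritin to lysosomes, was higher by 1.49 and the iron chaperone gene Pcbp2 by 0.86, whereas Glrx3 and Bola2, which work together in cytosolic iron-sulfur transfer, differed by -2.38 and -1.07.

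The iron sensing list held 4 genes, of which Epas1, a hypoxia-inducible factor gene (1.83), and Aco1, which encodes IRP1 (1.14), were higher and Zfp36, an mRNA decay factor gene, was lower (-0.65). Of 16 hepcidin control genes 8 were higher and 1, Hamp2, lower. Tmprss6, which encodes a protease that restrains hepcidin, was higher by 2.23, and Furin and Smad7, a protease and an inhibitor of SMAD signalling, by 0.93 each. In the list of haem transport, scavenging and response 10 of 15 genes were higher and 4 lower. Hpx, which encodes the plasma haem carrier hemopexin, averaged 10.44 in WT TER119 positive and 4.75 in WT TER119 negative cells, Lrp1, which encodes its receptor, was higher by 3.38 and Mafk, which encodes a small MAF protein, by 2.85. Hp, which encodes the haemoglobin carrier haptoglobin, averaged 5.04 in WT TER119 positive and 9.32 in WT TER119 negative cells (-4.28, SE 0.25). Nfe2l2, the gene of the stress response factor NRF2, differed by -1.24 and the constitutive haem oxygenase gene Hmox2 by -0.59, so both haem oxygenase genes were called, in opposite directions. Of 10 mitochondrial iron genes 6 were higher and 3 lower. Abcb10 and Slc25a37, which encode a transporter and the mitoferrin it stabilises, were higher by 4.33 and 4.12, and Fech, which inserts iron into haem, by 2.98. Sfxn1, a mitochondrial carrier gene, Hspa9, a chaperone gene, and Slc25a28, which encodes the second mitoferrin, differed by -0.88, -0.69 and -0.44.

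**Figure D5:**
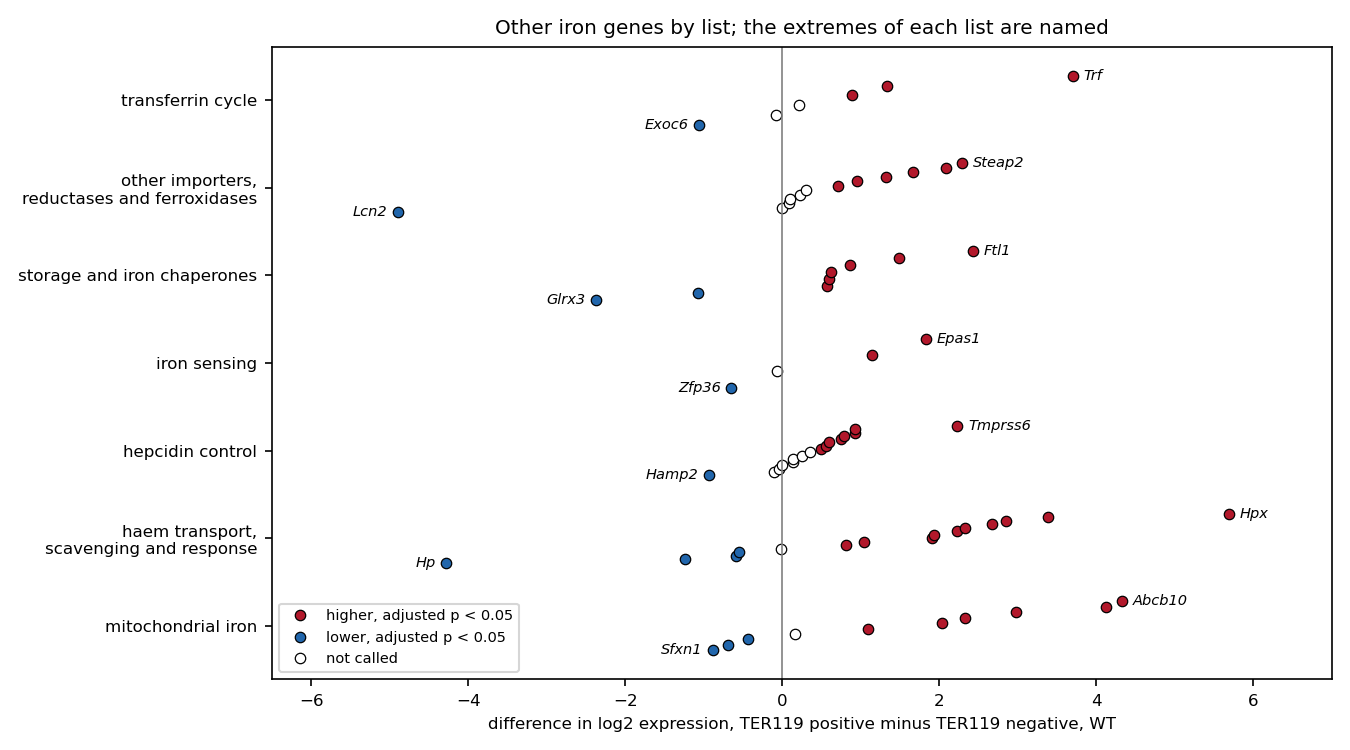
Difference in log2 expression between WT TER119 positive and WT TER119 negative cells (horizontal axis) for 71 other iron genes in 7 lists; each point is a gene, red called higher, blue called lower and white not called, and the extremes of each list are named. Hpx (5.69) and Abcb10 (4.33) stand farthest to the right, and Lcn2 (-4.90) and Hp (-4.28) farthest to the left.

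Between genotypes 0 of the 71 other iron genes were called in either fraction, with 4 at an unadjusted p under 0.05 in TER119 positive and 5 in TER119 negative cells. Such counts are near the shares of all genes, 5.33% in TER119 positive and 7.56% in TER119 negative cells, so the genes named next are a description. The median differences were 0.05 and 0.03. In TER119 positive cells the gene of smallest p in each list was Exoc6 (0.28, adjusted p = 0.704), Heph, a ferroxidase gene (-0.20), Glrx3 (0.31), Epas1 (0.08), Bmp2, which encodes an inducer of hepcidin (-0.50, adjusted p = 0.266), Flvcr2, a transporter gene (0.31), and Glrx5, a mitochondrial iron-sulfur gene (0.26, adjusted p = 0.834). In TER119 negative cells it was Trf (-0.77, adjusted p = 0.653), Steap1, a reductase gene (-0.29, adjusted p = 0.655), Ftl1 (0.12), Aco1 (0.20), Smad7 (-0.15), Hpx (-0.36) and Nfs1, the sulfur donor of iron-sulfur assembly (0.49, adjusted p = 0.655). The hepatocyte-lineage list, whose sign Trf and Hpx shared, had a median difference of -0.80 on these arrays with 0 of 19 genes called. The mitochondrial iron list was above 0 for 10 of 10 genes in TER119 negative cells, with a median of 0.19 and 0 called. The other lists were mixed there. Above 0 were 4 of 6 transferrin cycle genes, 4 of 12 importers, reductases and ferroxidases and 7 of 8 storage genes. So were 2 of 4 iron sensing, 5 of 16 hepcidin control and 8 of 15 haem transport genes.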

How the data were processed

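Expression was measured on 15 Affymetrix arrays. The deposited values are log2 expression per probe set, made by the authors with RMA and Partek, per the submitters' processing notes; those notes give no versions and do not say how many runs there were. RMA compresses differences between dim signals and brings arrays towards a shared distribution, although 52.6% of genes were called between fractions. The deposited arrays did not share it exactly. A further quantile normalization changed genotype differences in TER119 negative cells, for Blvrb from 0.449 to 0.323 and for Hmox1 from 0.143 to 0.261. Values ran from 2.91 to 14.26 and array medians from 5.28 to 5.43. Of 35399 probe sets 21789 had 1 symbol in the platform's gene table, 1621 several and 11989 none; the probe set of highest mean per gene left 19938 genes. RefSeq (GRCm38.p6) held Entrez identifiers for 21698 and changed 0 symbols. The arrays' number limits precision.

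A mean per group was fitted in limma 3.58.1 (R 4.3.3) to all arrays without covariates (11 residual and 4.91 prior degrees of freedom), with 2-sided moderated tests adjusted over all genes. The fit was tested on simulated data. Of simulated genotype differences of 0.5, 38.8% were called in TER119 positive and 37.3% in TER119 negative cells. A gene that was not called between genotypes is thus not shown to be unchanged. Intervals are 95%. All 10 genes are named; of the lists, the 3 largest rises and falls between WT fractions and the smallest p between genotypes. The members and lists were chosen with earlier results of these data known. Replicate numbers were not used to pair samples in the main fit. Deviations of same-numbered arrays correlated over 0.1 in 2 of 3 TER119 positive and 2 of 4 TER119 negative pairs of genotypes. The highest was 0.65, for TER119 negative arrays 4. Between fractions the correlation was over 0.1 in 1 of 4 WT and 0 of 3 KO-labelled pairs. By inferred sex, WT arrays 1 and 4 and KO-labelled array 2 differed between the fractions. The WT arrays 1 and 4 were female and KO-labelled array 2 was female in TER119 positive cells, and all were male in TER119 negative cells. KO-labelled array 1 was male in TER119 positive and female in TER119 negative cells. WT arrays 2 and 3 and KO-labelled array 3 had the same sex in both. Sex was inferred from Xist and Y-linked genes. Alternatives were other probe set, filter, normalization, variance, sex, covariate, replicate and array choices.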

Additional observations from a re-analysis of the deposited data

Results flagged for a closer look

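Of 30 groups of 4 arrays examined over the 10 genes, 2 held an array far from the others, where chance marks about 1 group in 20. Slc40a1 on WT TER119 negative array 1 stood at 8.18, while the other 3 arrays of the group lay between 7.61 and 7.68. That array also had the highest later red cell (8.81) and the lowest hepatocyte-lineage (5.69) list mean of its group. Hmox1 on WT TER119 negative array 3 stood at 6.07, while the other 3 lay between 5.22 and 5.35; its means of the macrophage (5.83), neutrophil (10.90), megakaryocyte (9.56), endothelial (6.13) and earlier precursor (8.19) lists were the highest of the TER119 negative arrays. Whether these lists account for either value was not tested. The differences between WT fractions for both genes stayed called without any 1 array, at 4.08 to 4.27 for Slc40a1 and 4.99 to 5.28 for Hmox1.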

How the results depend on the processing

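No member was called between genotypes in either fraction under any alternative run (lowest adjusted p 0.173 in TER119 positive and 0.118 in TER119 negative cells), and 8 members were called higher between fractions under all. Of the values for single genes between fractions, 7 of 149 in WT cells lost their call, all of Ireb2 (4 of them without 1 array; the others with an intensity trend, adjusted p = 0.0668, with the replicate block, -0.259, adjusted p = 0.0637, and with sex as a factor, adjusted p = 0.109). In KO-labelled cells Hamp (-0.342, adjusted p = 0.037) and Ireb2 (-0.288, adjusted p = 0.0222) passed without the 3 arrays that stood apart. The replicate block changed no other call. Signs of differences between genotypes near 0 turned, in TER119 negative cells for Tfr2, Hamp and Ireb2 after quantile normalization (-0.0207, 0.0267 and -0.0506) and with the hepatocyte covariate (-0.196, 0.0196 and -0.0353), for Hamp with sex as a factor (0.0261), and without the 3 arrays for Tfr2, Hamp, Hmox1 and Ireb2 (-0.0899, 0.154, -0.0713 and -0.0481). In TER119 positive cells they turned for Slc40a1 with sex (0.0137) and Hamp with the covariate (-0.0385), and the Blvrb interaction became 0.00278 after quantile normalization. Leaving out 1 array gave, in TER119 positive cells, -0.0733 to 2e-04 for Tfrc, -0.0261 to 0.0249 for Slc40a1 and -0.0757 to 0.0693 for Hamp, and in TER119 negative cells -0.023 to 0.168 for Tfrc, -0.124 to 0.0945 for Tfr2 and -0.191 to 0.182 for Hamp. The causes of these changes were not tested. Averaged over fractions, the members called numbered 1, and 0 with sex, after quantile normalization or without some arrays (0 to 1). Genes called numbered 203 between genotypes in TER119 positive cells but 350 when that fraction was fitted alone, and 17 in TER119 negative cells but 4 when fitted alone, 7 with sex, 9 with the covariate, 8 without the 3 arrays and 8 to 24 without 1 array. For the averaged effect, 190 became 122 with sex. With a mean filter of 5, Hamp was not fitted. Signals without detection calls limit the dim genes, Hamp above all.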

Other observations

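Within groups, after each group's mean was subtracted, the genes whose values over the 15 arrays were most like those of 4 members were listed as a description. In all 19938 genes were searched, and sorting and RNA quality of single arrays were not assessed. The weight of single arrays, such as WT TER119 negative array 3 for Hmox1 (6.07) or array 4 for Hamp (5.11), was not tested. Tfrc was most like Isca1 (Pearson's r 0.94), which encodes an iron-sulfur assembly protein of mitochondria, Nxpe2 (0.94) and Pkhd1l1 (0.92). Slc40a1 was most like Prpf4b (0.95), a kinase gene, Kel (0.92), which encodes a blood group protein of red cells, and Sapcd1 (0.91). Hmox1 was most like Fcer1a (0.95), which encodes a chain of the IgE receptor, Pttg1ip (0.94) and Mtmr14 (0.93). Hamp was most like Dio3 (0.91), Vip (0.91) and Gm5113 (0.89).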
